A study of Mus musculus with 6 samples.

Results

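The CCN proteins Ccn1 and Ccn2 and 8 further targets and regulators of the coactivator YAP (Ankrd1, Amotl1, Amotl2, Lats2, Axl, Crim1, Ptpn14 and Wwc1) were followed in Mvt-1 cells given insulin. The members were taken as every array probe whose symbol in the platform annotation is one of these 10 genes, which gave 23 of the 45281 probes. The set was chosen by the measured insulin against vehicle intensities of these same arrays, with the fall of Ccn2 already known, so the changes below are a description of the members, and the adjusted p-values, which come from fits to all genes or all probes, are no independent evidence for them. The cells were starved of serum for 16 h, and the 2 groups were cells given 10 nM insulin for 90 min (3 arrays) and cells given vehicle (3 arrays). Mvt-1 is a single mouse mammary tumour line, derived from a tumour of a mouse whose Myc and Vegf transgenes are driven by the mammary tumour virus promoter, and both groups therefore carry these transgenes. It is not stated if replicates came from separate cultures, and the p-values then reflect just the scatter of these arrays, part or all of which could be technical.

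YAP and its relative TAZ are transcriptional coactivators without a DNA-binding domain of their own, and they reach their target genes through the TEAD transcription factors. The Hippo kinases, ending in LATS1 and LATS2, phosphorylate YAP and keep it out of the nucleus, and growth factors, serum lipids, cell contact and tension of the actin skeleton all act on this step. Ccn1 and Ccn2 encode secreted matricellular proteins that bind integrins and are the most used readouts of YAP activity, while several other targets, among them Lats2, Amotl2 and Ptpn14, encode proteins that hold YAP back.

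The motif bound by TEAD factors can be looked for in the starts of these genes, and 4 promoter windows are shown because their genes gave the probes that separated the 2 groups. Of the 10 member genes 9 matched the RefSeq promoter table of GRCm38.p6, which gives 250 bases before to 50 bases after each gene start, and Ccn2 did not. The capitals mark GGAATG or, on the other strand, CATTCC. The windows lie at chr3:145649936-145650235 (minus strand) for Ccn1, chr19:36119795-36120094 (minus strand) for Ankrd1, chr9:102717554-102717853 (plus strand) for Amotl2 and chr1:189728018-189728317 (plus strand) for Ptpn14.
Ccn1: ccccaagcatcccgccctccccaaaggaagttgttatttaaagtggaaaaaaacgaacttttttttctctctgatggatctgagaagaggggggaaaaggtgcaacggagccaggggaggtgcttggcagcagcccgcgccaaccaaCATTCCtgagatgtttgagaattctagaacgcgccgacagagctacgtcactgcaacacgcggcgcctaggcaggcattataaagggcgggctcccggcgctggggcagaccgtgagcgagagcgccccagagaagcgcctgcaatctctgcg
Ankrd1: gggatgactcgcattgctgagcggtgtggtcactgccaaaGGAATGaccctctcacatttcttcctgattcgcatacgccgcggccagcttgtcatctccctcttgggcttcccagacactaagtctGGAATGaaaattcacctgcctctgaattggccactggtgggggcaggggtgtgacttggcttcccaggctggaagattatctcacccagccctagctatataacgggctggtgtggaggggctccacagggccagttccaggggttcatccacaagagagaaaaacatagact
Amotl2: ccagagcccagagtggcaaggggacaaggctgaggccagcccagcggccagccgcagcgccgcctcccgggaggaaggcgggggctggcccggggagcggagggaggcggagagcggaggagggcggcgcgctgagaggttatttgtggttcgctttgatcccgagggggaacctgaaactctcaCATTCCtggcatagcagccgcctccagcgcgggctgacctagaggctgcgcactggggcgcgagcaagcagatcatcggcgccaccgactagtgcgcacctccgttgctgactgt
Ptpn14: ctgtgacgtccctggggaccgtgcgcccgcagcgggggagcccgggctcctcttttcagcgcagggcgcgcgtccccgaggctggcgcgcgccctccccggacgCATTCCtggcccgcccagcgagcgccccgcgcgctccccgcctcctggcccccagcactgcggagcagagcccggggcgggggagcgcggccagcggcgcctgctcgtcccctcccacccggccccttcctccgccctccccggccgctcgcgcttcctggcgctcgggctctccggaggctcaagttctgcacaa

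Ccn1 held a single match that began 103 bases before the start, and Ankrd1 held 2, at 210 and 123 bases before it. The matches began 65 bases before the start in Amotl2 and 146 bases before it in Ptpn14. Single matches also stood 233 bases before the start of Axl and 79 bases before that of Crim1, and one began 4 bases after an annotated start of Lats2, whose other window held none. Amotl1 and Wwc1 had no match in their windows. In all, 7 of the 9 member genes, or 77.8%, held a match in a window, against 16.6% of the 27025 genes in the table and 14.7% of its 32851 windows. The match was also found in 10 of 21 Hippo pathway and TEAD genes that had a window and in 0 of 8 further genes of a published YAP signature. It stood in 6 of 21 targets of the serum response factor and its MRTF cofactors and in 2 of 9 epithelial markers. Of the remaining lists, 1 of 10 TGF-beta targets, 1 of 12 markers of other cells and 0 of 1 other CCN genes held it. The CArG box, which the serum response factor binds, was searched as well and stood in 0 of the 9 member genes and in 1.63% of all windows. Nothing is read from a count of 0 among 9 genes at that share. The box stood in 8 of the 21 targets of the serum response factor and its MRTF cofactors that had a window. A match in these letters does not show that a factor binds there.

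**Figure D1:**
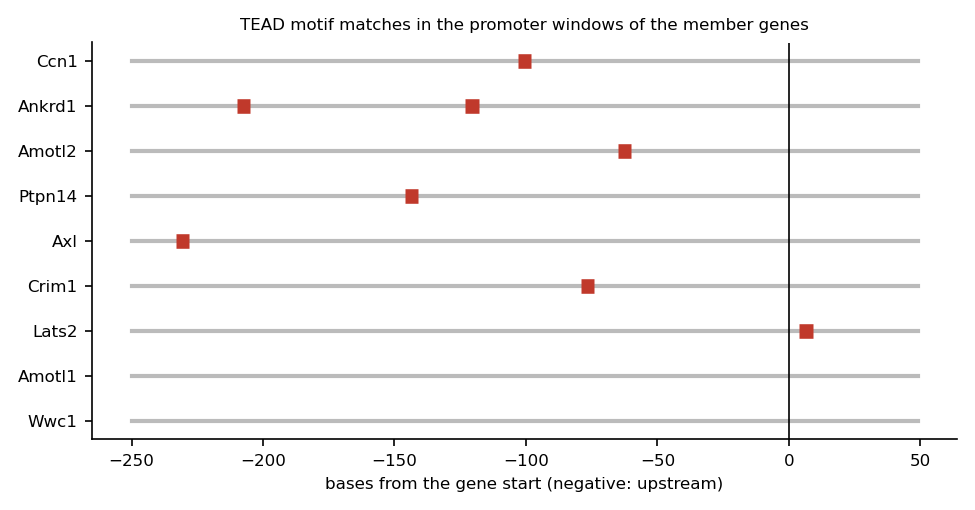
Position of GGAATG on either strand in the promoter windows of the 9 member genes that have one, in bases from the gene start (vertical line). Each grey line is 1 gene (for Lats2, both its windows laid on one another) and each red block 1 match; Amotl1 and Wwc1 have none.

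The 6 arrays were alike in quality. Of the 45281 probes 38.9% to 40.3% were detected per array (detection p under 0.05), the median non-normalized signal was 76.0 to 77.1, and log2 values of the genes tested correlated at 0.988 to 0.992 between arrays. Signals were background-corrected, quantile-normalized and put on a log2 scale, and a probe was tested when it was detected on at least 3 of the 6 arrays. The labelled epithelial cell type was checked against 11 markers. Krt8 and Krt18, the keratins of simple epithelia, were detected on 6 arrays, Cldn3 on 6, Krt14 on 4 and Cdh1 on 3. Krt7 and Cldn7 were detected on 2 arrays and not tested, and Epcam, Krt19, Krt5 and Cldn4 were detected on none. Of the 5 epithelial markers tested 0 passed in limma and 0 had an unadjusted p under 0.05, as 11% of all 9478 genes did, with log2 changes of -0.21 to 0.20. Nothing is read from a count of 0 among 5 genes at that share. Of 19 named markers of fibroblasts, endothelium, immune and fat cells, 4 were tested (Pdgfra, Col3a1, Dcn and Pdgfrb) and 9 were detected on no array, among them Ptprc, Cdh5, Adipoq and Col1a1. All 4 tested were fibroblast markers, each detected on 6 arrays, while the fibroblast markers Col1a1, Col1a2 and Lum were detected on none. Col3a1 (mean log2 intensity 8.36) and Dcn (8.16) were about as bright as Krt18 (8.42), and Pdgfra (6.82) and Pdgfrb (6.85) about as bright as Cldn3 (6.65). Krt8 was brighter than all of these (10.92). Krt14 (4.51) and Cdh1 (4.46) lay near the lowest mean of the genes tested (4.34). The summed level of the 4 tested markers was 789 to 820 on the insulin arrays and 787 to 980 on the vehicle arrays (linear normalized intensity). Their part in the results below was not tested. In RNA of whole cultures, fewer cells that express a gene and less RNA per cell cannot be told apart.

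Ccn2, a secreted matricellular protein also known as CTGF, stood lower on every insulin array by both of its probes. The brighter probe, ILMN_2909150, read 8.10, 7.58 and 8.19 on insulin arrays 1, 2 and 3 and 8.83, 8.75 and 9.02 on vehicle arrays 1, 2 and 3, in log2 intensity. The highest insulin array thus lay below the lowest vehicle array, and insulin replicate 2 was the lowest of all. Ccn2 fell 1.88-fold, to a mean of 7.96 ± 0.33 with insulin, against 8.87 ± 0.14 with vehicle (SD, n = 3 each), a log2 change of -0.91 with a 95% interval of -1.24 to -0.58 (limma, Benjamini-Hochberg adjusted p = 0.0213 over 9478 genes). The second probe, ILMN_1238215, read 7.11, 6.74 and 7.24 with insulin and 7.93, 8.02 and 8.17 with vehicle. Its order of insulin arrays was the same, and its log2 change was -1.01 ± 0.15 (standard error).

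Among the 10 member genes, all of which had a tested probe, 1 passed the threshold of 0.05 for the adjusted p, against 0.464% of all genes tested, and that gene was Ccn2. Because Ccn2 led to the choice of the members, nothing is read from this count. Over single probes, where the adjustment runs over 17482 tests and 0.0572% passed (0.0458% as lower), ILMN_1238215 was called (limma adjusted p = 0.0174) and the brighter Ccn2 probe was not (adjusted p = 0.0662). The call of Ccn2 did not hold in every fit with 1 array left out. It was lost without insulin replicate 2, where the change was -0.72 (limma adjusted p = 0.0891), and without vehicle replicate 1 (0.0696), 2 (0.0689) or 3 (0.123). Without vehicle replicate 1 or 2 the change was -0.92 or -0.96, no smaller than with all arrays, and the standard error was 0.18, against 0.16. Whether a particular array or the smaller number of arrays lost the call was not tested. Over all alternatives the adjusted p ran from 0.000135 to 0.172 in limma, while the change itself stayed between -1.03 and -0.72. In the authors' deposited processed values, which have no background correction, the brighter probe averaged 311 ± 54.1 with insulin and 526 ± 46.2 with vehicle (linear intensity, SD, n = 3 each), and the log2 change was -0.77.

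**Figure D2:**
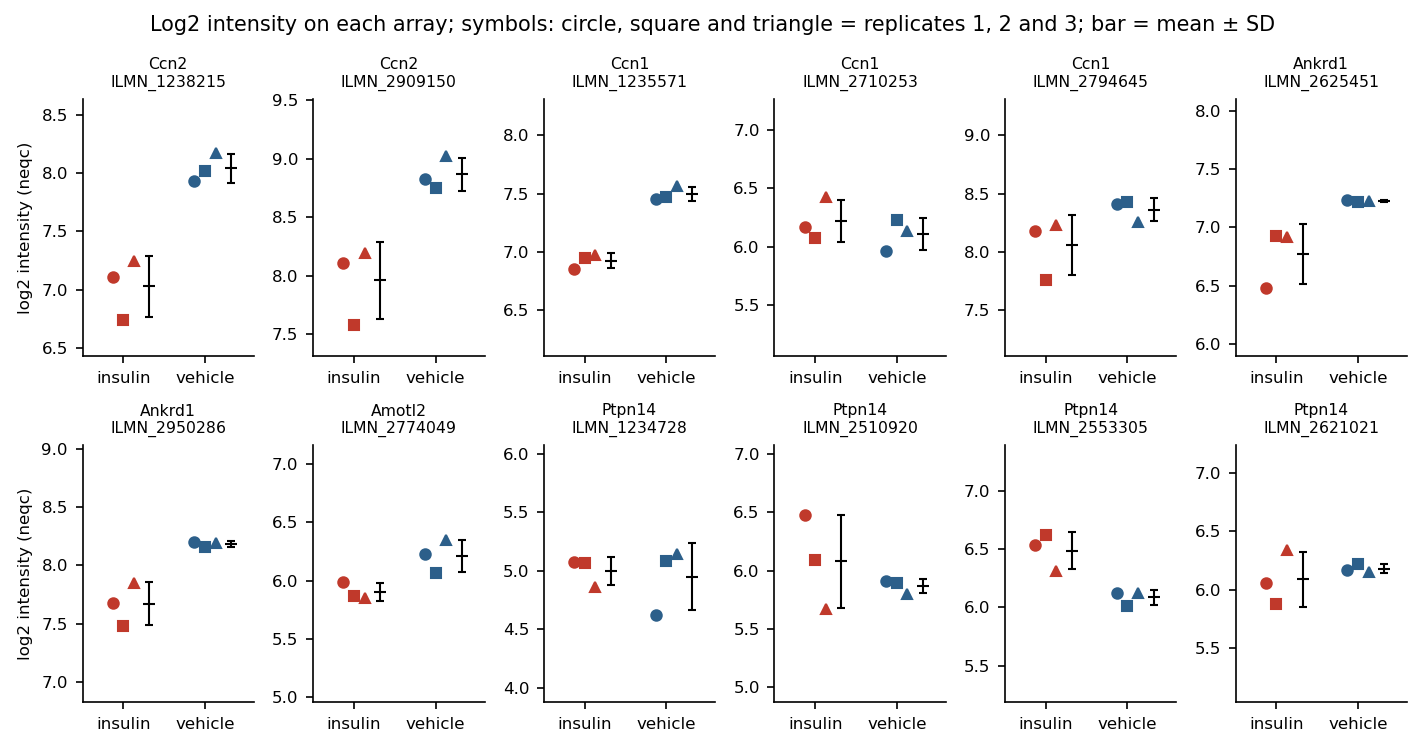
Normalized log2 intensity of the tested probes of Ccn2, Ccn1, Ankrd1, Amotl2 and Ptpn14 on each array, insulin at the left (red) and vehicle at the right (blue); circles, squares and triangles are replicates 1, 2 and 3, and bars are mean ± SD. Every panel spans the same range of log2 units; the groups do not overlap for both Ccn2 probes, both Ankrd1 probes, the Amotl2 probe, 2 of 3 Ccn1 probes and 1 of 4 Ptpn14 probes.

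Ccn1, the matricellular protein also known as CYR61 and the closest relative of Ccn2 among the members, had 3 tested probes that did not move alike. Probe ILMN_1235571 read 6.85, 6.95 and 6.98 on the insulin arrays and 7.46, 7.47 and 7.56 on the vehicle arrays. The groups were far apart relative to their spread, and the log2 change was -0.57, with a 95% interval of -0.84 to -0.30 (limma adjusted p = 0.115 over all probes). This probe passed in 1 of 14 alternatives, with a trended and robust variance (limma adjusted p = 0.0421; range 0.0421 to 0.416). The brightest probe, ILMN_2794645, read 8.18, 7.76 and 8.23 with insulin and 8.41, 8.43 and 8.25 with vehicle. Here replicate 3 of both groups nearly met, with all insulin arrays still below, and the change was -0.31 ± 0.14 (limma adjusted p = 0.448 over all genes). It shrank to -0.16 without insulin replicate 2, the lowest array. The dimmest of the 3, ILMN_2710253, gave a positive change of 0.11, with overlapping groups and a 95% interval of -0.19 to 0.41. That interval does not reach the value of -0.57 seen with ILMN_1235571, and all 3 probes carry the annotation of the same Ccn1 transcript.

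Ankrd1, an ankyrin repeat protein of the nucleus and of muscle sarcomeres and a standard YAP target, was lower on every insulin array by both probes but did not pass the threshold. Probe ILMN_2950286 read 7.68, 7.48 and 7.85 with insulin and 8.20, 8.15 and 8.19 with vehicle, a log2 change of -0.51 with a 95% interval of -0.79 to -0.24 (limma adjusted p = 0.113). Probe ILMN_2625451 read 6.48, 6.93 and 6.92 with insulin and 7.23, 7.22 and 7.22 with vehicle, a change of -0.45 ± 0.14. The vehicle arrays were close together by both probes, with SDs of 0.025 and 0.0068, and the spread lay in the insulin arrays, with SDs of 0.18 and 0.26. The lowest insulin array differed between the probes, being replicate 2 by the first and replicate 1 by the second. By rank of p Ankrd1 stood at 94 of 9478 genes. It passed in 1 of 15 alternatives, with a trended and robust variance (limma adjusted p = 0.0380; range 0.0380 to 0.432).

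The angiomotin-like proteins Amotl1 and Amotl2 are junctional scaffolds that bind YAP and hold it in the cytoplasm. Amotl2, with a single probe, read 5.99, 5.87 and 5.85 with insulin and 6.22, 6.07 and 6.34 with vehicle. The groups did not overlap, but the nearest arrays lay close, and the log2 change of -0.31 ± 0.13 did not pass (limma adjusted p = 0.396). In the authors' deposited processed values, without background correction, the change was -0.17. Amotl1 had 2 tested probes with changes of -0.13 and -0.12, whose groups overlapped. The 95% interval of its brighter probe ran from -0.40 to 0.16, so that a fall as large as that of Ccn2 lay outside it.

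Lats2, the kinase that phosphorylates YAP and is itself a YAP target, and Wwc1, the scaffold protein also called KIBRA that acts upstream of LATS, were both dim. Lats2 was detected on 2 insulin and 2 vehicle arrays, at non-normalized signals of 74.7 to 82.1, and changed by -0.060 with a 95% interval of -0.33 to 0.21. Its sign turned, to 0.031, without insulin replicate 1. The tested Wwc1 probe gave 0.070 ± 0.13, and -0.023 without vehicle replicate 2. Its other probe was detected on 0 insulin and 2 vehicle arrays and was not tested. The standard errors, 0.129 for Lats2 and 0.130 for Wwc1, were near the median of 0.135 over all genes tested. Small changes of either gene could not be told from none, and the part of the dim signal in this was not tested.

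Ptpn14, a protein tyrosine phosphatase that binds YAP and is a YAP target as well, was the only member with a probe on which all insulin arrays stood above all vehicle arrays. That probe, ILMN_2553305, read 6.53, 6.62 and 6.31 with insulin and 6.13, 6.01 and 6.12 with vehicle, a log2 change of 0.40 with a 95% interval of 0.13 to 0.67 (limma adjusted p = 0.249 over all genes). It is annotated to a cDNA clone rather than to the RefSeq transcript. The 2 tested probes annotated to the RefSeq transcript gave 0.21 and -0.089, the other clone probe gave 0.052, and the groups of all 3 overlapped. With the mean of the gene's probes the change was 0.14, and in the authors' deposited processed values 0.23.

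Axl, a receptor tyrosine kinase for the ligand Gas6, and Crim1, a transmembrane protein that binds BMPs, are downstream targets. Axl read 11.76, 11.79 and 11.57 with insulin and 11.90, 11.38 and 11.85 with vehicle. The vehicle arrays enclosed the insulin arrays, and the change was -0.0068 with a 95% interval of -0.32 to 0.31. Leaving out vehicle replicate 2, the lowest array, gave -0.17, and leaving out vehicle replicate 1 gave 0.087. Crim1 had 2 tested probes with changes of -0.23 and -0.12, both with overlapping groups, and the first ran from -0.44 to -0.086 over the alternatives, at the extremes without vehicle replicate 1 and without insulin replicate 1.

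Over all members, 19 of 23 probes passed the filter on dim signals and 4 did not (1 each of Axl, Crim1, Ptpn14 and Wwc1, with signals of 71.4 to 85.7). Of the 19, 14 had a negative change, as did 51.1% of all probes, and 5 a positive one, with a median of -0.12, against -0.0042 over all 17482 probes. On 7 of the 19 all insulin arrays stood below all vehicle arrays, and on 1 above, where 8.33% and 6.71% of all probes tested did so. These 7 probes belong to 4 genes, Ccn2, Ccn1, Ankrd1 and Amotl2, and probes of a gene share their target. At the level of genes, 8 of 10 changes were negative, beside 54.0% of all genes, and the median was -0.18, beside -0.015 over all genes. In 4 genes all insulin arrays stood below all vehicle arrays and in 1 above, where 9.34% and 6.59% of all genes did so. As the same comparison led to the members, these counts describe them and carry no test.

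**Figure D3:**
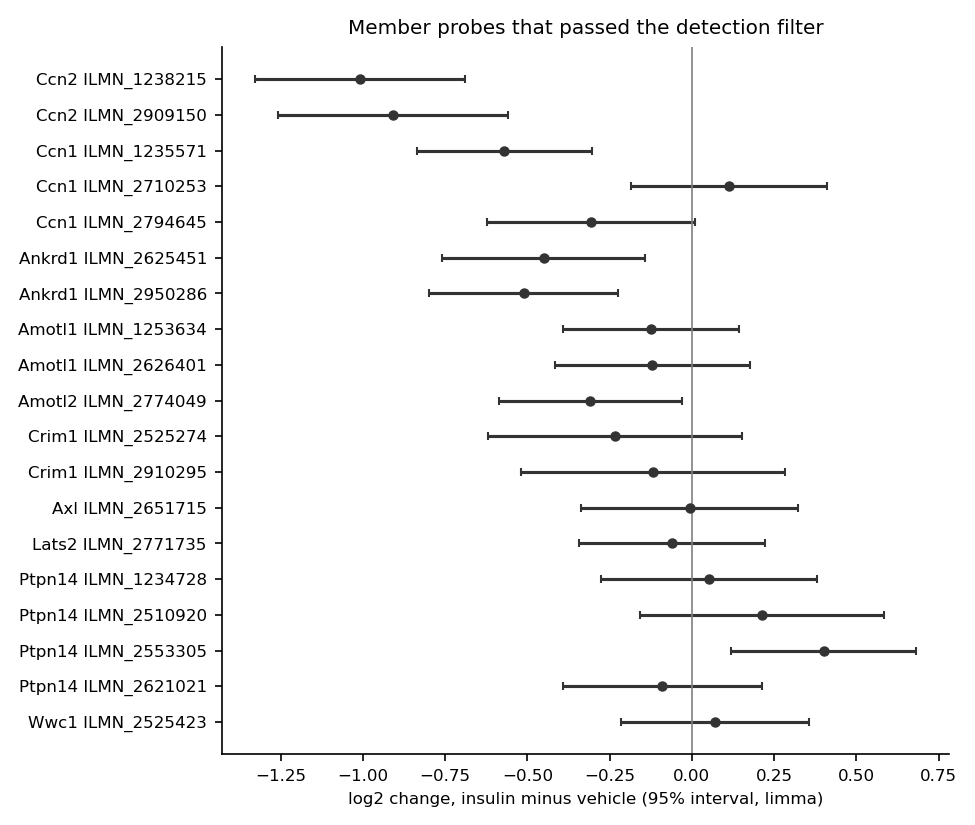
Log2 change (insulin minus vehicle) of the 19 tested member probes, as points with 95% intervals from the fit to all 17482 probes. The intervals of both Ccn2 and both Ankrd1 probes, the Amotl2 probe and 1 Ccn1 probe lie below 0, that of 1 Ptpn14 probe lies above 0, and the other 12 include 0.

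The fit was repeated under 15 alternatives (13 for Lats2, which both stricter detection filters removed) of background correction, normalization, filter, probe choice, variance model, replicate block and left-out array. Ccn1, Ccn2, Ankrd1, Amotl1, Amotl2 and Crim1 kept a negative and Ptpn14 a positive change in each of the 15, whereas Lats2, Axl and Wwc1, with changes near 0, did not keep their sign. Ccn2 was called in 10 of the 15, Ankrd1 in 1 and none of the other 8 member genes in any, at the level of genes. Without the filter on dim probes 0 genes of the whole array passed in limma, where 1645 had an unadjusted p under 0.05, and the adjusted p of Ccn2 was 0.172.

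**Figure D4:**
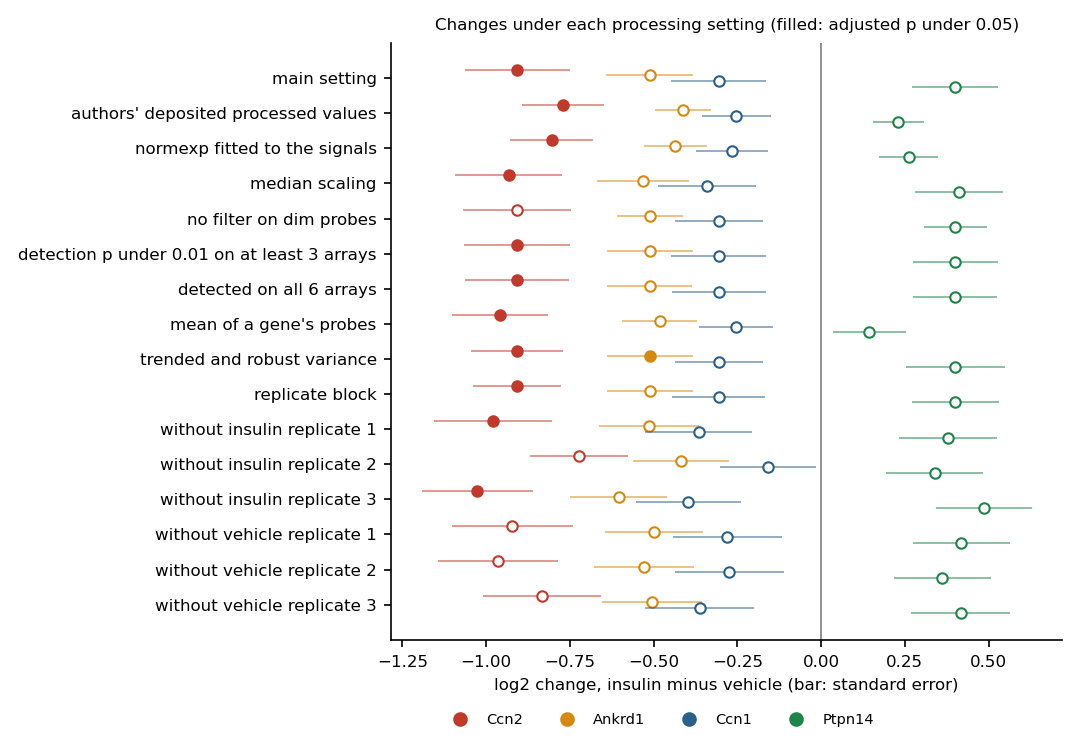
Log2 change (insulin minus vehicle) of Ccn2, Ankrd1, Ccn1 and Ptpn14 in the main setting and under each of the 15 alternatives, with standard errors; filled points have an adjusted p under 0.05. Ccn2 stays between -1.03 and -0.72 and Ptpn14 between 0.14 and 0.49.

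The wider pathway was described with lists that were also drawn up with earlier results of these data known. Of 14 further genes of a published YAP target signature, 8 were tested, of which 1 fell, 0 rose and 7 did not pass, where 0.338% of all genes were called lower. The one that fell was Nuak2, an AMPK-related kinase that YAP induces. Nuak2 read 8.444, 8.293 and 8.501 with insulin and 8.937, 9.003 and 9.054 with vehicle, a log2 change of -0.59 with a 95% interval of -0.85 to -0.32 (limma adjusted p = 0.0465). The groups lay well apart, but the call was lost with median scaling (limma adjusted p = 0.0507), without the filter on dim probes, and without any 1 array other than insulin replicate 3 (over all alternatives from 0.00707 to 0.219). The other 7 changed by -0.14 to 0.17, and the list's median was -0.076. Gadd45a, a stress-induced growth arrest gene, stood at -0.14 ± 0.14 and Nt5e, the ecto-enzyme CD73, at 0.12 ± 0.13.

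Of the other CCN genes, Ccn4 and Ccn5 were tested, and Ccn3 was detected on at most 1 array. Ccn4, a CCN protein induced by Wnt signalling, read 9.03, 8.60 and 8.71 with insulin and 8.48, 8.45 and 8.27 with vehicle. All insulin arrays were thus above all vehicle arrays, the opposite side from Ccn2 and from 2 of the Ccn1 probes. The log2 change was 0.38 with a 95% interval of 0.083 to 0.67 (limma adjusted p = 0.334), and it was 0.15 with the mean of the gene's probes. Without insulin replicate 1 it was 0.25. Ccn5 was dim and stood at -0.14 ± 0.18, with -0.38 without vehicle replicate 2 and 0.078 without vehicle replicate 3.

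The transcripts of the pathway's own machinery were looked at next. Of 29 Hippo pathway and TEAD genes, 21 were tested, and 0 passed in limma, where 0.464% of all genes did. Nothing is read from a count of 0 among 21 genes at that share. At an unadjusted p under 0.05 the count was 0 of 21, beside 11% (1038) of all genes. Of the 21 changes 11 were positive and 10 negative, between -0.19 and 0.35, with a median of 0.0093. Those with the smallest p were Vgll4, a cofactor that competes with YAP for TEAD, at 0.35 ± 0.18, Frmd6, an upstream activator of the kinases, at -0.19 ± 0.14, and Taok3, a kinase of the TAO family, at -0.18 ± 0.13. Single arrays or settings moved all 3. Vgll4 was 0.13 without insulin replicate 2, 0.20 without vehicle replicate 1 and 0.21 in the authors' deposited processed values. Frmd6 was -0.087 without vehicle replicate 2 and -0.30 without vehicle replicate 3. Taok3 was -0.11 without insulin replicate 2, -0.12 in the authors' deposited processed values and turned to 0.030 with the mean of the gene's probes. Named for their role and after their values were seen, Yap1 stood at 0.053 (95% interval -0.28 to 0.39), Wwtr1, which encodes TAZ, at -0.18 (-0.49 to 0.13) and Tead1 at -0.087 (-0.41 to 0.23). Nf2, the upstream tumour suppressor merlin, was detected on 0 arrays.

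Ccn1 and Ccn2 are also read by the serum response factor with its cofactors of the MRTF family, and Ccn2 by TGF-beta signalling, so both target sets were looked at. Of 17 SRF and MRTF targets tested 0 passed in limma, where 0.464% of all genes did, and nothing is read from that count. An unadjusted p under 0.05 was found for 2, a share near the 11% of all genes. These were Thbs1, the matricellular protein thrombospondin 1, at 0.45 ± 0.16, and Srf itself at 0.33 ± 0.15, and Itga5, a fibronectin receptor subunit, stood at 0.20 ± 0.12. Without vehicle replicate 1 Thbs1 was at 0.25 and Srf at 0.22. In the authors' deposited processed values Thbs1 was at 0.28 and Itga5 at 0.11, and with normexp Itga5 was at 0.13. The list's median was 0.011, and Actb, a main actin gene, stood at -0.0031 (also named after its value was seen). Of 13 TGF-beta targets tested 0 passed in limma, and nothing is read from this count either, at 0.464% of all genes. An unadjusted p under 0.05 was found for 1, again near the share of all genes. This was Snai2, a repressor of epithelial genes, at -0.45 ± 0.12 (limma adjusted p = 0.139) and -0.19 in the authors' deposited processed values (-0.23 with normexp). Id3, an inhibitor of helix-loop-helix factors, stood at -0.29 ± 0.14 and Tgfb1, the ligand, at 0.28 ± 0.14, and the list's median was -0.019. Id3 was -0.14 without insulin replicate 2 and Tgfb1 0.16 without vehicle replicate 2, and in the authors' deposited processed values they were -0.17 and 0.16. Among markers of other cells Pdgfra stood at -0.43 ± 0.16, Col3a1 at -0.13 ± 0.13, Dcn at -0.13 ± 0.14 and Pdgfrb at 0.041 ± 0.14, none of these 4 past the threshold. Pdgfra was -0.26 and Col3a1 -0.041 without vehicle replicate 3, and Dcn ran from -0.27, with the mean of the gene's probes, to -0.0047, without vehicle replicate 2. In the authors' deposited processed values Pdgfra was -0.28.

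**Figure D5:**
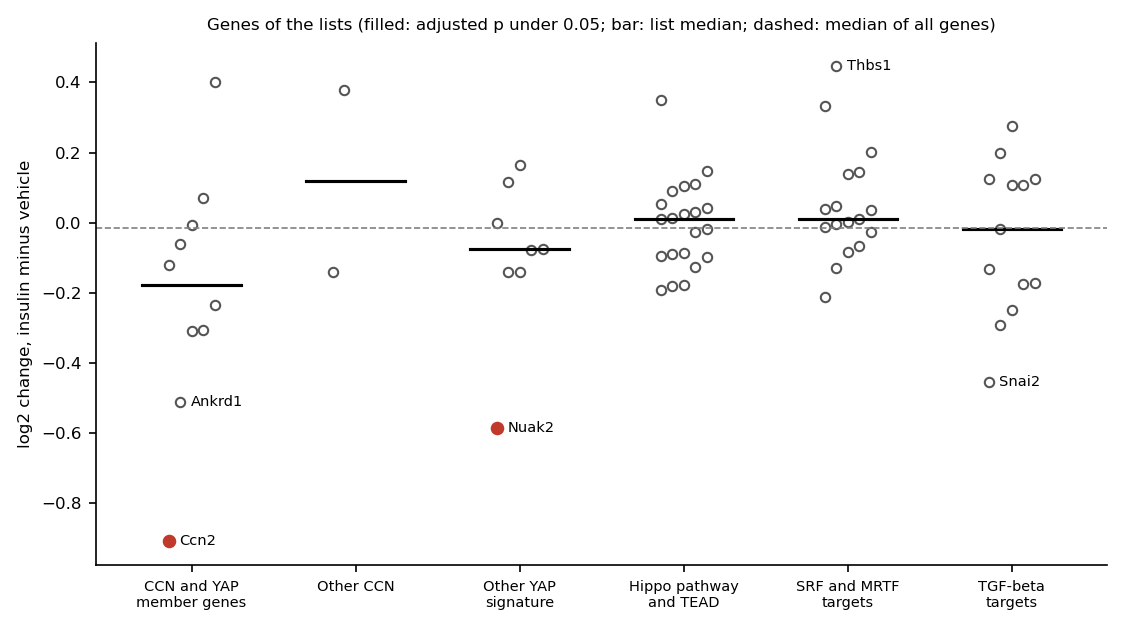
Log2 change (insulin minus vehicle) of the tested genes of the members, at the left, and of 5 further lists; each point is 1 gene, bars are list medians and the dashed line is the median of all 9478 genes (-0.015). Filled points, Ccn2 and Nuak2, have an adjusted p under 0.05.

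The genes whose values over the 6 arrays were most like those of Ccn2 were found by the root-mean-square difference of log2 values, each gene centred on its own mean. The nearest were Zfp94, a zinc finger gene (0.12), Klf2, a Krüppel-like factor (0.17), Bmp4, a bone morphogenetic protein (0.18), Cldn1, a tight junction claudin (0.20), and Ing4, a chromatin reader (0.21). Their log2 changes ran from -0.82 for Klf2 to -0.64 for Ing4. The nearest member gene to Ccn2 was Ankrd1, at 0.23, not far past Ing4. Counted from the side of Ankrd1, 1803 genes lay nearer to Ankrd1 than Ccn2 did. How many lay nearer to Ccn2 than Ankrd1 did was not counted. Ccn1 lay at 0.33 from Ccn2, and 7907 genes lay nearer to Ccn1 than Ccn2 did. For Ccn1, by its brightest probe, the nearest were Sf3b6 (0.021), Ccdc159 (0.036), Slc37a4 (0.041), Ltbp4 (0.042) and Id3 (0.056), with changes of -0.29 to -0.36. Ankrd1 lay at 0.14 from Ccn1, and 151 genes lay nearer to Ankrd1 than Ccn1 did. Each count of nearer genes was taken from only 1 gene of its pair. These likenesses rest on 6 arrays that share 1 comparison and are a description only.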

How the data were processed

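Total RNA of Mvt-1 cells was amplified, labelled with biotin and hybridized to single-colour Illumina beadchips, per the labels' protocols. The deposited non-normalized table holds, per the file headers, a signal (a linear intensity) and a detection p-value for each probe and array; GenomeStudio is named in the submitters' processing notes, without settings. The authors' deposited processed values are linear intensities that a quantile normalization of the signals gave to within 3.33e-06, with no log scale, centring or background correction.

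Signals were corrected and normalized with limma 3.58.1 (R 4.3.3), by neqc with background estimated from the detection p-values and an offset of 16. Subtracting the background stretches differences of dim probes, and the offset limits this. Probes detected (p under 0.05) on at least 3 arrays were kept, 17482 in all. Platform symbols were used (34885 probes with 1 symbol, 18 with several, 10378 with none). A gene was represented by its brightest kept probe (9478 genes). Insulin was compared with vehicle by lmFit and eBayes, two-sided, without the replicate number, with Benjamini-Hochberg adjustment over all genes or all probes at a threshold of 0.05. The procedure was run on simulated data with independent noise and with added changes larger than those of every member but Ccn2. That run does not show how well smaller changes would be found.

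All 10 members and every probe of them are reported. From each further list the genes past the threshold were named, or otherwise up to 3 with the smallest p, and likeness took the nearest 5 genes. A few genes named outside this rule (Gadd45a, Nt5e, Yap1, Wwtr1, Tead1, Actb, Pdgfrb and undetected or detected markers given by detection) were chosen after their values were seen. Members and lists were chosen with earlier results of these data known. No slide or scan batch was modelled, and the number of arrays limits the precision. Sequences came from RefSeq (GRCm38.p6).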

Additional observations from a re-analysis of the deposited data

How the results depend on the processing

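The count of called genes, 44 in the main setting (12 higher, 32 lower), was 22 with the authors' deposited processed values (11 and 11), 29 with normexp fitted to the signals (13 and 16), 0 without the filter on dim probes, 83 with a trended and robust variance and 75 with the replicate block, and ran from 3 to 69 when 1 array was left out. The count of called probes, 10 in the main setting, was 16, 28, 0, 85 and 71 under the same settings in turn and ran from 0 to 53 when 1 array was left out. For the counts of 0 in limma, 1645 genes and 3264 probes without the filter, and 1344 probes without vehicle replicate 3, had an unadjusted p under 0.05. The count stayed within 1.5 times for median scaling, for both stricter detection filters and, for genes, for the mean of a gene's probes. Leaving out insulin replicate 3 gave the highest counts and vehicle replicate 3 the lowest. Samples that share a replicate number had correlated deviations of 0.0901, 0.152 and 0.131, each the highest for its array, a hint from the data and not the design, and by the rule of over 0.1 in every pair they were not treated as paired. With the replicate block Ccn2 had an adjusted p of 0.00315 and Ankrd1 one of 0.0632 in limma, and the brighter Ccn2 probe was called. Of the values of single genes and probes under the alternatives 639 kept their side of the threshold and moved by less than the spread between replicates or kept their call, 17 moved by more, 18 lost and 6 gained a call, and 0 called values changed sign. The cause of these shifts was not tested. The signals of Lats2, Wwc1, Crim1 and Ptpn14 probe ILMN_1234728 (81.6 to 93.6) lay near background. Those of Amotl2 (117.3 to 140.9), of the separated Ptpn14 probe (122 to 158.2) and of the dimmest Ccn1 probe (117.9 to 146.4) were not far above it. How far this limits what can be seen of these genes was not tested.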
